A study of Mus musculus with 16 samples.

Results

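The genes described here encode the matrix of the cartilage that holds the trachea and main bronchi open, measured in whole lungs of mice that lack T1α (podoplanin, Pdpn), an apical membrane protein of alveolar type I cells, and of their wild type counterparts. They were chosen by symbol: Col2a1, Col9a1, Col9a2, Col9a3, Col11a1, Matn1, Comp, Acan and Hapln1, 9 genes in all. A probe set of the array was taken for a gene where its annotation gives that symbol and no other. By that rule 8 of the 9 genes were measured, of 8251 genes that the array names in this way, by 9 of the 12422 probe sets that are not controls, since Col9a3 has 2 probe sets. Comp, which encodes an oligomeric glycoprotein that binds collagen fibrils, was not analysed here.

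The groups were term T1α(-/-) lungs (n = 3, replicates F to H), term T1α(+/+) lungs (n = 3, N to P), E18.5 T1α(-/-) lungs (n = 5, A to E) and E18.5 T1α(+/+) lungs (n = 5, I to M). The null mice came from crosses of heterozygous parents and lack T1α in every tissue, and the litter of each pup and the amount of large airway left on each lung are not given in the sources used here. Each array held the RNA of 1 lung, so a lower signal from fewer chondrocytes and one from less RNA per chondrocyte cannot be told apart. The study asked how lungs without T1α differ from (+/+) lungs before and at birth, and the genes below were compared between genotypes at each time and between the times within each genotype.

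Hyaline cartilage is built on thin fibrils of type II collagen, a trimer of 3 chains of 1 gene, Col2a1. Type XI collagen, to which Col11a1 contributes a chain, sits within these fibrils and limits their width, and type IX collagen, a trimer of the Col9a1, Col9a2 and Col9a3 chains, decorates their surface. Aggrecan (Acan), a proteoglycan laden with chondroitin and keratan sulfate, draws water into the tissue. It is fixed to hyaluronan by the link protein that Hapln1 encodes. Matrilin 1 (Matn1), which is abundant in tracheal cartilage, joins fibrils to aggrecan, and in the respiratory tract these genes are known as products of chondrocytes under the control of SOX9, SOX5 and SOX6.

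The type IX collagen genes gave the only member signals high enough to be tested. Their upstream sequences are printed because Col9a1 was the member that changed, because its gene has 2 annotated start sites that the array cannot separate, and because Col9a2 has letters in common with one of them. The upstream start is known for the long form made in cartilage and the downstream one for a short form found in cornea. The 3 sequences are the 250 bases before each start, 5′ to 3′ on the plus strand, from RefSeq on the build GRCm38.p6. The upstream Col9a1 window ends at 24177609, past the first base of the gene at 24177589. The start used there, from which distances are counted, is thus not the first base of the gene. Capitals mark the letters TCAAAG, read on either strand, one of 4 SOX-type motifs of 6 letters that were searched on both strands (the others being ACAAAG, then ACAATG, and lastly TCAATG).
Col9a1 upstream start, chr1:24177360-24177609: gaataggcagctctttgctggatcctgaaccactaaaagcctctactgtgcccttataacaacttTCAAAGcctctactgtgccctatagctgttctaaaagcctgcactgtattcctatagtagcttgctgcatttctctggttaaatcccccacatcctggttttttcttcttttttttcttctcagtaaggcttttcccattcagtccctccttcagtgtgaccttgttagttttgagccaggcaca
Col9a1 downstream start, chr1:24194953-24195202: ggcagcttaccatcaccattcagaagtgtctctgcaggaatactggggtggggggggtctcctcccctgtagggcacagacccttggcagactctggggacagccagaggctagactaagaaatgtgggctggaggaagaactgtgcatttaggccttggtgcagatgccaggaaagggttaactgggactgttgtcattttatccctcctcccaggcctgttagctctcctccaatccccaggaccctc
Col9a2 start, chr4:121039316-121039565: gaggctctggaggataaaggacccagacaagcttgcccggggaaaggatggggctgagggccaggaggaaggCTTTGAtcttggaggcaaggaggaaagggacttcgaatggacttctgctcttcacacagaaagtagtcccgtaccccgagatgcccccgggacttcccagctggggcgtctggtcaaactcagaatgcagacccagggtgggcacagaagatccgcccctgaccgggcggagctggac
The letters lie 185 bases before the upstream Col9a1 start on the plus strand and 178 bases before the Col9a2 start on the minus strand. None of the 4 motifs is in the window of the downstream Col9a1 start. The table holds 7 start sites of 6 members, and no SOX-type letters are in the windows of Col11a1, Matn1, Acan and Hapln1. At least 1 of the 4 motifs is found in 39.4% of the 32851 windows of the same length, and TCAAAG alone in 13.8%, so a match describes the letters and no more.

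Signals are MAS 5.0 values on a linear scale, with a trimmed mean of about 100 on each array. At each time the T1α signal of all (-/-) arrays lay below that of all (+/+) arrays, with 8.6 to 30.0 at term and 1.4 to 21.2 at E18.5 in (-/-) lungs, against 39.7 to 214.9 at term and 60.2 to 135.5 at E18.5 in (+/+) lungs. The lung epithelium markers summed to 12560 to 12720 in term (-/-) and 9248 to 13280 in term (+/+) lungs, and to 22440 to 38580 in E18.5 (-/-) and 18860 to 34170 in E18.5 (+/+) lungs. On 15 arrays the 15 probe sets for bacterial transcripts averaged 3.58 to 11.05, with the highest of them at 11.3 to 31.5. E18.5 (+/+) replicate I stood apart: there they averaged 35.3 with the highest at 107.7, and its lower quartile signal was 29.8, against 8.7 to 14.9 on the other 15 arrays. For several of the results below, the value without replicate I or the range with 1 array left out is also given.

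Set against these controls, which mark the floor of an array, the 8 genes formed 2 tiers. Col9a1, Col9a2 and the brighter Col9a3 probe set exceeded the highest bacterial control of their array on 16 of 16 arrays, and Col2a1 did so on 13. Acan exceeded it on 6 arrays, Col11a1 on 3, and Matn1, Hapln1 and the dimmer Col9a3 probe set on 1 each. The signals of these last genes were thus near the floor. Levels were not compared between probe sets.

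**Figure D1:**
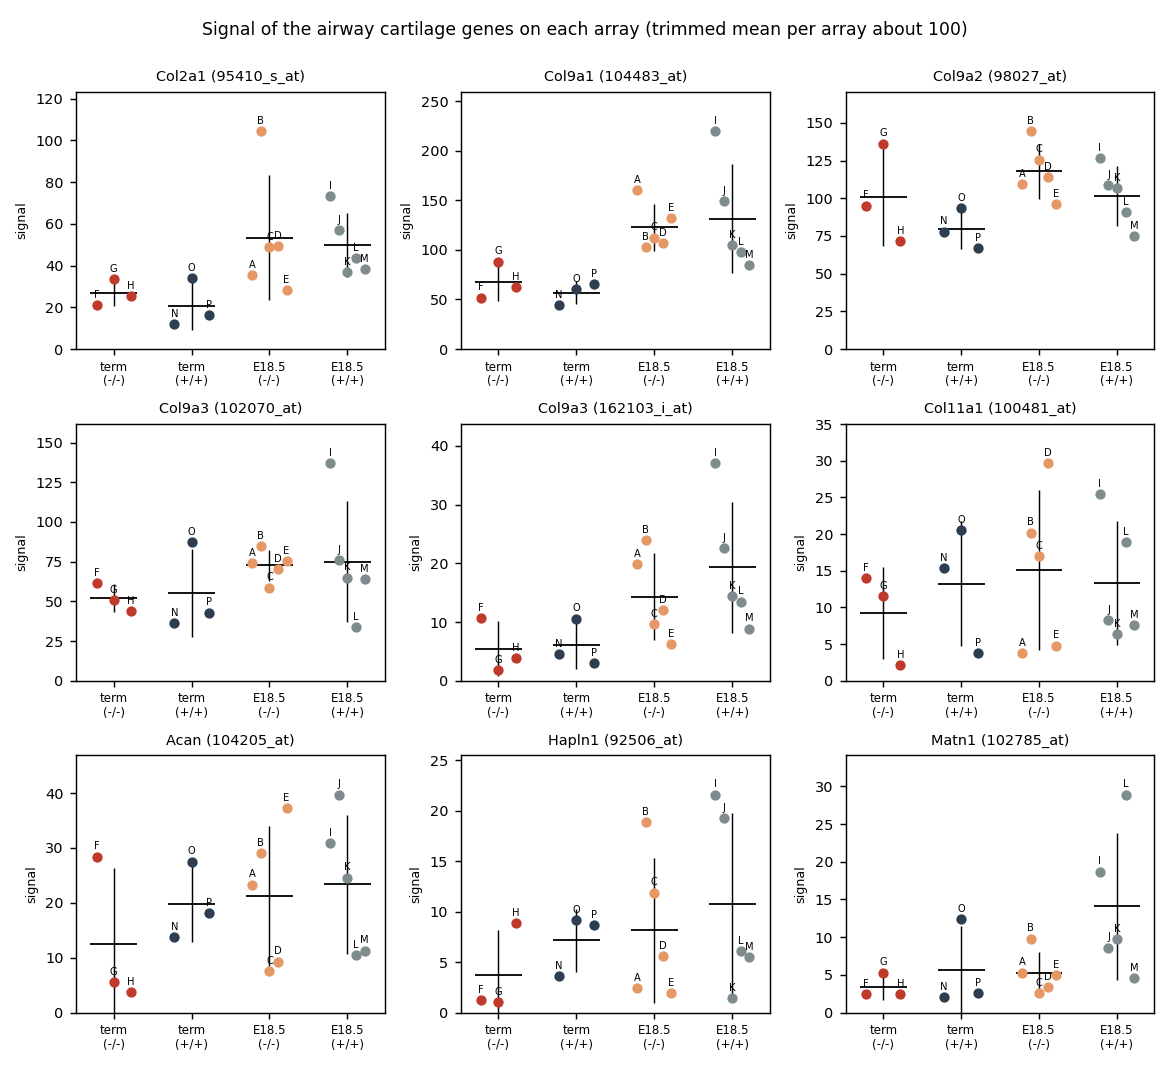
Signal (linear, y axes from 0, each panel with its own scale) of the 9 probe sets on each of the 16 arrays, in the order term (-/-), term (+/+), E18.5 (-/-), E18.5 (+/+); points are arrays with their replicate letters, horizontal lines means and vertical lines 1 SD, with the lower end stopped at 0. All 6 term arrays lie at 43.9 to 88.2 for Col9a1 and all 10 E18.5 arrays at 84.7 to 219.6, while Col2a1 stands at 104.4 on replicate B.

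The main change was with time. Col9a1 (chr1:24177589-24252738 on GRCm38.p6, as for all gene positions here), the type IX chain with 2 start sites, had signals of 51.9, 88.2 and 62.3 in term (-/-) lungs, against 160.2, 102.4, 112.3, 106.7 and 132.2 in E18.5 (-/-) lungs. In (+/+) lungs it had 43.9, 60.6 and 65.7 at term, against 219.6, 148.9, 105.0, 97.7 and 84.7 at E18.5. Within each genotype every term array was below every E18.5 array, and the group medians were above the signal that a group median had to pass for a probe set to be tested (50.1 in (-/-) and 52.5 in (+/+) lungs) at both times. The mean in (-/-) lungs was 67.5 ± 18.7 at term (SD, n = 3) and 123 ± 23.8 at E18.5 (SD, n = 5), and in (+/+) lungs 56.7 ± 11.4 at term (SD, n = 3) and 131 ± 55.0 at E18.5 (SD, n = 5).

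On the log2(signal + 16) scale Col9a1 was lower at term by limma in (-/-) lungs (log2 difference -0.74, SE 0.21, adjusted p = 0.0228), a term level 0.599 times that of E18.5 on that scale (95% interval 0.417 to 0.859). In (+/+) lungs its log2 difference by limma was -0.96 (SE 0.29, adjusted p = 0.0332), or 0.515 times (0.313 to 0.846). The exact permutation test of its array values gave p = 0.0357 in both genotypes, which is the smallest that 3 arrays against 5 can give. Of all probe sets tested, 13.0% were called lower at term in (-/-) lungs and 7.99% in (+/+) lungs, so 1 of the 3 tested members stands beside calls that were common on the array. Among the tested probe sets 14.7% in (-/-) and 11.6% in (+/+) lungs had every term array below every E18.5 array.

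The Col9a1 call rested on single arrays in both genotypes. In (-/-) lungs it was lost without term replicate F (log2 difference -0.60, adjusted p = 0.116 by limma) or H (-0.71, 0.0692), and when each array was centered on its median (-0.63, 0.0576). In (+/+) lungs it was lost without E18.5 replicate J (-0.90, 0.0717) or term replicate N (-0.82, 0.171), without term replicate O (0.0775), and after quantile normalization (-0.94, 0.0539) or with no level for testing (0.0693). It held without replicate I (-0.77, 0.0485).

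Col2a1 (chr15:97975602-98004724), which encodes the type II collagen chain, also had lower means at term, at lower signals. It had 21.1, 33.4 and 25.5 in term (-/-) lungs, against 35.3, 104.4, 48.8, 49.5 and 28.3 in E18.5 (-/-) lungs. In (+/+) lungs it had 12.1, 33.9 and 16.3 at term, against 73.2, 57.0, 37.0, 43.4 and 38.3 at E18.5. In (-/-) lungs the groups overlapped, since replicate G at term was above replicate E at E18.5, and in (+/+) lungs they did not. There, term replicates N and P and E18.5 replicate I were below the highest bacterial control of their array (25.2, 18.7 and 107.7).

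The log2 difference of Col2a1 between term and E18.5 was -0.62 in (-/-) lungs (exact permutation p = 0.0714) and -0.85 in (+/+) lungs (exact permutation p = 0.0357). With 1 array left out, the difference of Col2a1 ran from -0.76 to -0.40 in (-/-) and from -1.10 to -0.68 in (+/+) lungs. Its group medians were below that level for testing. With that level removed its adjusted p by limma was 0.222 in (-/-) and 0.118 in (+/+) lungs, so it did not pass the test. Over all 12422 probe sets, 13.1% in (-/-) and 11.4% in (+/+) lungs showed every term array below every E18.5 array.

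The other chains of type IX collagen did not pass the test between the times. Col9a2 (chr4:121039566-121055325) had 95.1, 136.2 and 71.6 in term (-/-) lungs, against 109.2, 144.5, 125.7, 113.9 and 96.1 in E18.5 (-/-) lungs. It had 77.9, 93.4 and 67.1 in term (+/+) lungs, against 126.7, 108.5, 106.7, 90.8 and 74.7 in E18.5 (+/+) lungs. The groups overlapped in both genotypes, and the log2 differences were -0.22 (95% interval -0.75 to 0.31) in (-/-) and -0.29 (-0.89 to 0.31) in (+/+) lungs.

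Col9a3 (chr2:180598102-180622192) had 61.5, 51.0 and 44.0 by its brighter probe set in term (-/-) lungs, against 73.9, 84.9, 58.7, 70.1 and 75.5 in E18.5 (-/-) lungs. In (+/+) lungs it had 36.4, 87.3 and 42.9 at term, against 137.2, 75.8, 65.0, 33.8 and 63.8 at E18.5. In (-/-) lungs only replicate C at E18.5 fell within the range of the term arrays, whereas in (+/+) lungs both groups held high and low arrays. The log2 differences were -0.38 (95% interval -0.86 to 0.10) in (-/-) and -0.32 (-1.16 to 0.52) in (+/+) lungs, and neither passed the test. The (+/+) difference was -0.11 without E18.5 replicate I and -0.62 without term replicate O. The dimmer probe set gave -0.49 in (-/-) and -0.64 in (+/+) lungs, at signals of 1.8 to 37.1.

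The remaining members were faint at both times. Acan had 3.7 to 28.4 in term (-/-) and 13.8 to 27.5 in term (+/+) lungs, and 7.6 to 37.3 in E18.5 (-/-) and 10.4 to 39.7 in E18.5 (+/+) lungs. Col11a1 had 2.1 to 14.0 in term (-/-) and 3.8 to 20.5 in term (+/+) lungs, and 3.8 to 29.7 in E18.5 (-/-) and 6.4 to 25.4 in E18.5 (+/+) lungs. Hapln1 had 1.0 to 8.9 in term (-/-) and 3.6 to 9.2 in term (+/+) lungs, and 1.9 to 18.9 in E18.5 (-/-) and 1.4 to 21.6 in E18.5 (+/+) lungs. For each of these genes the groups overlapped in every comparison.

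With 1 probe set per gene, all 8 genes had a lower mean at term in both genotypes. The log2 differences ran from -0.74 to -0.13 in (-/-) lungs with a median of -0.32, and from -0.96 to -0.01 in (+/+) lungs with a median of -0.31. The (+/+) median was -0.16 without E18.5 replicate I and -0.51 without term replicate O. Over all 12422 probe sets 61.8% in (-/-) and 65.4% in (+/+) lungs were also lower, with medians of -0.12 and -0.19, so most of the array shared the direction. The -0.19 includes replicate I, and the median of all probe sets without it was not computed. Over the tested probe sets alone the (+/+) median was -0.04, and -0.06 without replicate I. Centering each array raised the members' time differences by about 0.11 in (-/-) and 0.14 in (+/+) lungs. After centering Col11a1 was at 0.14 and Acan at 0.05 in (+/+) lungs, and after quantile normalization Col11a1 was at 0.25, Acan at 0.14 and Hapln1 at 0.10 there.

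**Figure D2:**
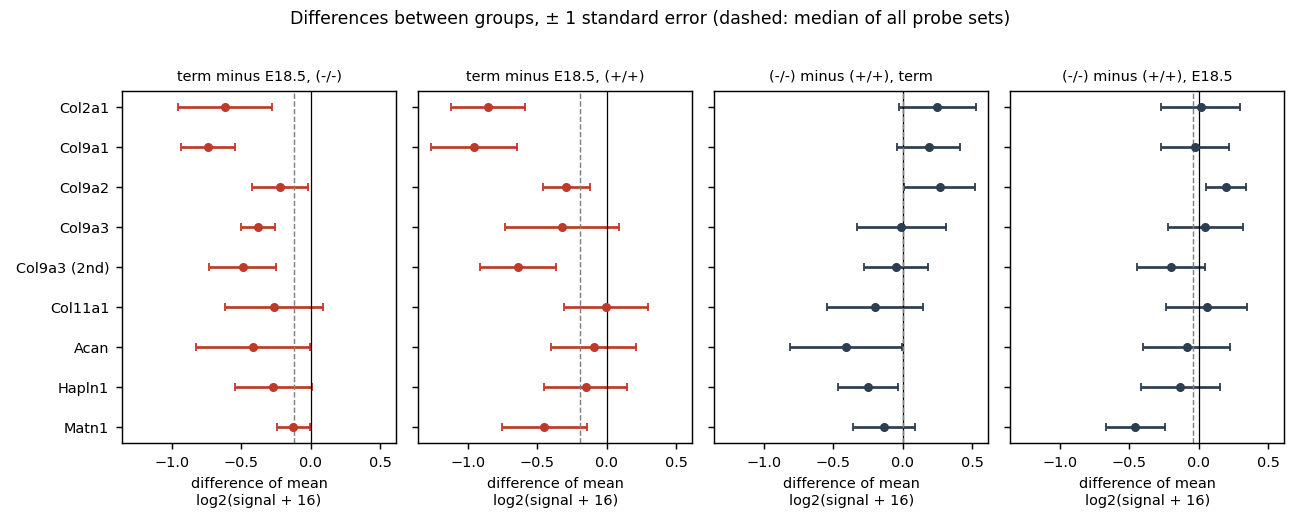
Differences of mean log2(signal + 16) for each probe set (rows; 2nd marks the dimmer Col9a3 probe set) in 4 comparisons, with bars of ± 1 standard error from the pooled SD, a solid line at 0 and a dashed line at the median of all probe sets. Col9a1 stands at -0.74 and -0.96 in the time comparisons, and the genotype differences run from -0.46 to 0.27.

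Between the genotypes no member passed the test at either time. At E18.5 the background was 0.0340% of 5879 probe sets called, and the 3 tested members had adjusted p of 0.903 to 0.992 by limma. At term 0.00% of 5885 probe sets were called by limma, with 40 at an unadjusted p under 0.05. At each time the arrays of the genotypes overlapped for all 9 probe sets of the members, and over all 12422 probe sets they did not overlap for 4.53% at term and 0.757% at E18.5. Over the 8 genes the median log2 difference, (-/-) minus (+/+), was -0.07 at term with 5 genes lower and -0.01 at E18.5 with 4 lower. Over all probe sets it was 0.00 at term with 49.0% lower and -0.05 at E18.5 with 57.1% lower.

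For the type IX genes the intervals bound the genotype difference. Col9a1 was 1.14 times (+/+) in (-/-) lungs at term (95% interval 0.715 to 1.81) and 0.980 times at E18.5 (0.675 to 1.42). Col9a2 was 1.20 times at term (0.740 to 1.95) and 1.14 times at E18.5 (0.851 to 1.54). Col9a3 was 0.992 times at term (0.575 to 1.71) and 1.03 times at E18.5 (0.686 to 1.56). Ratios of the mean linear signals were 1.19 at term and 0.936 at E18.5 for Col9a1. They were 1.27 and 1.16 for Col9a2, and 0.939 and 0.967 for Col9a3.

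Matn1 gave the largest genotype difference among the members at E18.5. Its signals were 5.3, 9.8, 2.6, 3.4 and 5.0 in E18.5 (-/-) lungs, against 18.7, 8.6, 9.7, 28.9 and 4.6 in E18.5 (+/+) lungs. Replicates I and L were high and M was as low as the (-/-) arrays, so the groups overlapped. The log2 difference was -0.46 (exact permutation p = 0.0794, where 5 arrays against 5 can reach 0.00794), and it was -0.39 without replicate I and -0.30 without replicate L. Only replicate L was above the highest bacterial control of its own array. At term it had 2.4, 5.3 and 2.4 in (-/-) lungs, against 2.0, 12.4 and 2.6 in (+/+) lungs. These exact p-values are unadjusted, and 36 of them were computed over 9 probe sets in 4 comparisons.

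No member passed the test of the difference in genotype effect between the times. For Col9a1 the effect at term minus that at E18.5 was 0.22 (95% interval -0.58 to 1.01), for Col9a2 0.07 (-0.60 to 0.74) and for Col9a3 -0.06 (-0.95 to 0.84), all on the log2 scale. Of the 6458 probe sets tested 0.00% were called by limma, and 95 had an unadjusted p under 0.05.

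Single arrays carried high signals of several cartilage genes at once. In E18.5 (-/-) lungs replicate B was the highest of the 5 for 5 of the 8 genes, and it was the highest for 28.4% of all probe sets. On it Col2a1 was 104.4, against 28.3 to 49.5 on the other 4, and Hapln1 was 18.9, against 1.9 to 11.9. It was also the highest for 9 of the 13 measured chondrocyte regulators. Of the 11 measured genes of other cartilage matrix it was the highest for 3, and their sum of 1126 was the lowest of its group. In E18.5 (+/+) lungs replicate I, the array with the raised floor, was the highest for 6 of the 8 genes and for 48.3% of all probe sets. In term (+/+) lungs replicate O was the highest of 3 for 7 of the 8 genes and for 41.3% of all probe sets. Of the 13 chondrocyte regulators replicate I was the highest for 9 and replicate O for 8. Of the 11 genes of other cartilage matrix they were the highest for 4 and 3. The sum of these 11 was the highest of its group on replicate I (1445) and the lowest on replicate O (909.7).

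Markers of tissues that adjoin the lung were read on the same arrays. The esophagus, thyroid and skin genes, 8 measured, summed to 304 to 395 in term (-/-) and 277 to 1526 in term (+/+) lungs, and to 547 to 3987 in E18.5 (-/-) and 459 to 1728 in E18.5 (+/+) lungs. Replicate O held the term maximum of 1526, and replicate B had 562, the median of its group. The 10 heart genes summed to 6605 on replicate O, which was the highest of its group for all 10. They summed to 1450 on replicate B, the lowest of its 5 arrays. The largest heart sums were 19730 on E18.5 (+/+) replicate M and 12900 on term (-/-) replicate F. Those arrays were the highest of their groups for 0 and 3 of the 8 cartilage genes. The 8 measured thymus genes summed to 340.4 on replicate I, 195.9 on replicate O and 188.8 on replicate B. Replicate I was the highest of its group for 7 of them, O for 6 and B for 2. The shares over all probe sets were 48.3%, 41.3% and 28.4%. In each comparison only 1 thymus gene passed the level for testing. Of 11 skeletal muscle genes these arrays were the highest for 8, 2 and 4. The GAPDH 3′ to 5′ ratio was 1.72 on replicate B and 2.55 on replicate O, the highest of each group. The beta-actin ratio was 1.61 on B and 1.35 on O, against a highest of 1.91 on D and 2.71 on N in the same groups. The part of adjoining tissue and of RNA quality in the cartilage signals was not tested.

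**Figure D3:**
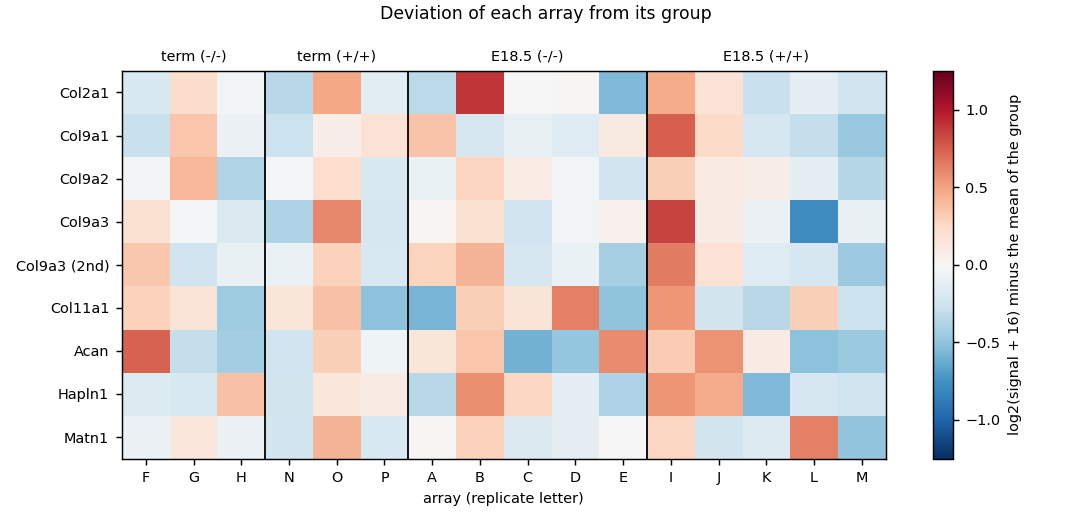
Deviation of log2(signal + 16) from the mean of its group (colour, red above and blue below) for each of the 9 probe sets (rows) on each of the 16 arrays (columns, by group). Replicates O, B and I are red for most rows, and the darkest red is Col2a1 on replicate B.

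The members were then compared with each other across arrays. With each value taken as its deviation from its group mean, 26 of the 28 pairs of genes had a Pearson r above 0, with a median of 0.34. Over all pairs of the 12422 probe sets, 56.0% were above 0 with a median of 0.06. Without replicate I the median was 0.18 for the members and 0.02 for all pairs, and after quantile normalization that of the members was 0.09. Since arrays share shifts over many probe sets, the count is a description and was not tested against other genes. On pooled values, which also hold the differences between groups, it was 0.39.

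Col2a1 and Hapln1 had the highest r, although Hapln1 was above the mean of the bacterial controls on only 7 of 16 arrays. Their r was 0.77 over 16 arrays (permutation p = 0.00088, adjusted over the 28 pairs 0.0206) and their Spearman rho was 0.83 (permutation p = 0.00079, adjusted 0.0111). Without the 2 arrays farthest from the median of Col2a1 r was 0.76, and without replicate I it was 0.73. Col2a1 and Col9a2 had r of 0.69 (permutation p = 0.00147, adjusted 0.0206) and rho of 0.68 (permutation p = 0.00616, adjusted 0.0575), and r was 0.64 both without the 2 farthest arrays and without replicate I.

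Col9a3 and Acan had r of 0.62 (permutation p = 0.00295, adjusted 0.0275) and rho of 0.78 (permutation p = 8e-05, adjusted 0.00224). Their r was 0.62 without the 2 farthest arrays and 0.66 without replicate I, but 0.35 after quantile normalization. Col9a1, the member that changed with time, had r of 0.27 with Col2a1 within groups, and 0.03 without replicate I, against 0.68 on pooled values.

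**Figure D4:**
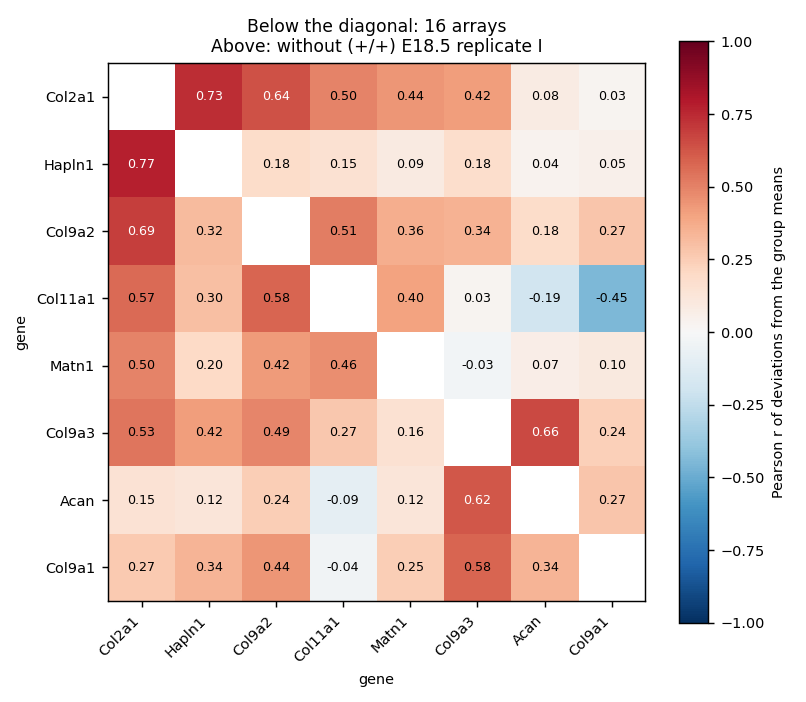
Pearson r between the members (rows and columns are genes) of the deviations of log2(signal + 16) from the group means, over 16 arrays below the diagonal and without E18.5 (+/+) replicate I above it. The strongest pair is Col2a1 with Hapln1 at 0.77 and 0.73, and Col9a1 with Col11a1 is at -0.04 and -0.45.

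Over 16 arrays, the mean profile of the 3 type IX genes, which was highest on replicate I, was most like that of Reg3b, a lectin of mucosal defence, at r of 0.93 among 5863 named probe sets. Dazap1, an RNA-binding protein, and Nap1l4, a histone chaperone, followed at 0.92 each, then Gpr162 and H2-M2 at 0.91. Fn1, the fibronectin gene, Trav9d-3, Hbb-y, an embryonic globin, and Lman2 were at 0.90 and Ccnf, a cyclin, at 0.89. No gene of the cartilage lists was among these 10, and 6 of them were also among the 10 most alike within groups. Only probe sets past the level for testing over all 16 arrays were compared. That level was passed by 6 of the 11 genes of other cartilage matrix and 5 of the 13 chondrocyte regulators. Without replicate I the r of these 10 was 0.85 to 0.90, 5 of them were among the 10 most alike, and Reg3b was at 0.90. Reg3b averaged 40.3 in term (-/-), 38.3 in term (+/+), 78.4 in E18.5 (-/-) and 75.5 in E18.5 (+/+) lungs.

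Other genes listed for cartilage gave 4 calls with time over both genotypes, and no gene was called in both. Of 11 measured genes of other cartilage matrix, 6 were tested in (-/-) and 5 in (+/+) lungs, and 1 was lower at term in (-/-) lungs and none in (+/+) lungs, with medians over the 11 of -0.43 and -0.37. It was Mia, a secreted protein known from chondrocytes, at 58.4 ± 14.2 at term (SD, n = 3) and 129 ± 33.1 at E18.5 (SD, n = 5) in (-/-) lungs (log2 difference -0.95, adjusted p = 0.0106 by limma). In (+/+) lungs its log2 difference was -0.68 (adjusted p = 0.102 by limma). Whole lung RNA does not show whether chondrocytes or other cells gave the signals of Mia or of the regulators below.

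Of 13 measured chondrocyte regulators, 5 were tested in each genotype, and 2 were lower at term in (-/-) lungs and 1 in (+/+) lungs, with medians over the 13 of -0.17 and -0.24. These counts stand beside 13.0% of tested probe sets called lower in (-/-) and 7.99% in (+/+) lungs. In (-/-) lungs Ihh, a hedgehog ligand of growing chondrocytes, differed by -0.94 (adjusted p = 0.0251 by limma) and Nog, a secreted antagonist of BMP, by -0.79 (0.0359). In (+/+) lungs Fgfr3, a receptor that restrains chondrocyte growth, differed by -0.85 (adjusted p = 0.0373 by limma), beside -0.80 in (-/-) lungs (0.0670). In (-/-) lungs Ihh, at 17.5 to 37.2 at term, and Nog, at 46.5 to 62.0, passed the level for testing only through their E18.5 medians. So did Fgfr3 in (+/+) lungs, at 24.0 to 33.8 at term. The level for testing thus largely set the direction of these calls, and their agreement in direction is no result. No gene of either list was called between the genotypes at either time.

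Among genes that serve the matrix, calls with time went in both directions, and most genes were not called. Over the array 26.7% of tested probe sets were called in (-/-) lungs (13.8% higher at term) and 18.6% in (+/+) lungs (10.6% higher at term). Of 8 measured genes of sulfated glycosaminoglycan synthesis, 6 were tested, with 1 called in (-/-) and 2 in (+/+) lungs. Papss1, which makes the sulfate donor, was lower at term by 1.15 on the log2 scale in each genotype (adjusted p = 0.00371 in (-/-) and 0.0133 in (+/+) lungs by limma), and Chpf, a chondroitin polymerase, was higher in (+/+) lungs at 1.41 (0.00408) and at 0.86 in (-/-) lungs (adjusted p = 0.0860). In (+/+) lungs Chpf passed the level only through its term signals, with 26.2 to 37.2 at E18.5, and the difference between the genotypes was not called. Of 11 measured genes of collagen modification, 10 were tested, with 4 called in (-/-) and 2 in (+/+) lungs. Lox, the collagen crosslinking oxidase, was higher at term at 1.23 in (-/-) and 0.97 in (+/+) lungs, and Pcolce, an enhancer of procollagen cleavage, was lower at -1.22 and -1.11. P4ha1, a prolyl hydroxylase, was higher at 1.28 and Plod3, a lysyl hydroxylase, lower at -0.71 in (-/-) lungs. In (+/+) lungs they were at 1.38 and -0.71 with adjusted p of 0.0504 and 0.0645 by limma, and the difference between the genotypes was not called for either.

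Genes of fibrous tissue and of other cell types were also read over time. Of 14 measured fibrous matrix genes, 11 were tested in (-/-) and 12 in (+/+) lungs. Col1a2, a type I collagen chain, was lower at term at -1.14 in (-/-) and -1.07 in (+/+) lungs, and in (-/-) lungs Bgn was lower at -0.73 and Ogn higher at 0.63. Of 5 measured bone genes 1 was tested in (-/-) lungs, Alpl, and it was called lower at -1.09, while in (+/+) lungs 2 were tested and none was called. In (-/-) lungs Alpl passed the level only through its E18.5 signals, since no bone gene passed the lower level of the genotype comparison at term. Medians over the smooth muscle list were -0.63 in (-/-) and -0.68 in (+/+) lungs. Those over the lung epithelium list were -0.86 and -0.72, and Sftpb, Sftpc and Ager of it were called lower in both genotypes. The large airway epithelium list gave no single direction. Its medians were -0.18 in (-/-) and -0.33 in (+/+) lungs, but Scgb1a1, the secretoglobin of club cells, was called higher at term in both (0.77 and 1.33), and Cyp2f2 was called lower in (-/-) lungs (-1.01). Its 10 genes summed to 4969 to 6023 at term and 3092 to 4047 at E18.5 in (-/-) lungs, and to 4671 to 5511 at term and 1464 to 3937 at E18.5 in (+/+) lungs. The part of these differences in the lower Col9a1 signal was not tested.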

How the data were processed

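Labelled RNA of 16 lungs was hybridised to 16 Affymetrix MG-U74Av2 arrays, 1 lung each. The authors made the deposited intensity values with MAS 5.0, as 1 linear, background-subtracted signal per probe set, and scaled each array. Detection p-values were not used here, so a signal level stood in for them. Groups came from the labels, and replicates are separate lungs named by letter. Batch, litter and sex entered no fit, and litter is not given in the sources used here. The genes and lists were chosen with earlier results of these data known.

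Signals were used as log2(signal + 16). A probe set was tested where the median of at least 1 group passed a level set from the share of probe sets that the methods call present (47.7 to 53.4 in the 5 comparisons). Tests were 2-sided, with lmFit and eBayes (trend) of limma 3.58.1 in R 4.3.3 and Benjamini-Hochberg adjustment over all probe sets tested, with a threshold of 0.05; the script was tested on simulated data. Single probe sets were compared by exact permutation tests over arrays, and pairs of members by permutation within groups (100000 resamples). The arrays' small number limits the precision. Of the 12422 probe sets, 10833 have 1 symbol, 396 several and 1193 none, and a probe set with several was not named. Besides every member, the genes named were the 10 most like the mean profile of the tested members, and at most 4 per list with the lowest p. Alternatives were other scalings, pseudocounts, levels for testing, tests, 1 fit of all arrays and leaving out each array.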

Additional observations from a re-analysis of the deposited data

Results flagged for a closer look

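Col2a1 was 104.4 on E18.5 (-/-) replicate B, against 28.3 to 49.5 on the other 4 arrays of that group. On linear signals the gap to the next array was 0.721 of the range of the group, just above Dixon's critical value of 0.71 for 5 arrays. The log2 scale of the other tests, which draws in high values, was not used for this ratio. It was 1 of 18 groups of 5 arrays that were examined over the 9 probe sets, and chance flags about 1 in 20 where values are normally distributed.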

How the results depend on the processing

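Of the 8 genes 5 were below the level for testing, the others had 3 arrays a group at term, and each call for Col9a1 was lost without single arrays. No paired analysis was possible because the replicate letters name different lungs in each group. The cause of the changes below was not tested.

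At E18.5, 2 probe sets passed between the genotypes, against 341 by the methods' t-test and 0 of these after Benjamini-Hochberg, 1 without a pseudocount, 1 with a higher level for testing, and 0 (without (+/+) replicate L) to 3 when 1 array was left out. At term 0 passed, against 79 by the methods' t-test. Over time in (-/-) lungs 1655 passed, against 1034 by the methods' t-test after Benjamini-Hochberg and 897 (without term replicate F) to 1772 when 1 array was left out, with 1101 without term replicate G; the median over the genes was -0.79 without a pseudocount. In (+/+) lungs 1140 passed, against 350 by that t-test and 334 (without term replicate N) to 1268, with 583 without term replicate O.

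No member was called between the genotypes under any alternative by limma, but small differences changed sign. The log2 difference of Col9a1 at E18.5 was 0.0201 after centering and -0.15 to 0.16 when 1 array was left out. That of Col9a3 was -0.15 to 0.26 at E18.5, and at term 0.0037 after centering, 0.0059 without a pseudocount and -0.20 to 0.29 when 1 array was left out. The difference of the effects between the times ran from -0.14 to 0.26 for Col9a2 and from -0.27 to 0.24 for Col9a3. Col9a1 stayed lower at term in both genotypes under every alternative, at -0.91 to -0.60 in (-/-) and -1.08 to -0.77 in (+/+) lungs when 1 array was left out, and with the higher level for testing it was not tested. The methods' t-test, on 3 arrays against 5, was not past its threshold for Col9a1 in (+/+) lungs, unlike in (-/-) lungs.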
